A study of Rattus norvegicus with 3 samples.

Results

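Kinesins and cytoplasmic dynein are the motors that carry cargo along microtubules, and the data here are the RNA levels of their genes in cultured commissural neurons of the rat. The genes were chosen by name: kinesin heavy chains (Kif followed by a number, without Kif7), kinesin light chains (Klc), the subunits of dynein-1 (Dync1, Dynll, Dynlrb, Dynlt) and dynactin (Dctn), and the dynein regulators Pafah1b1, Nde1, Ndel1, Bicd1 and Bicd2. The rule found 61 of the 26353 entries of the deposited table, with 60 distinct symbols, since Kif22 had 2 entries. Of the 61, 35 are kinesin heavy chains. Commissural neurons, which send their axons across the ventral midline of the spinal cord, were taken from embryos of day 13 and grown in culture for 2 days without any treatment named in the labels. The 3 libraries of polyadenylated RNA, called 1, 2 and 3 by their replicate numbers, form 1 group, and the labels give no strain, genotype or sex. They do not say whether the libraries came from separate cultures or pooled embryos, so the p-values speak of the spread among these 3 samples alone, and that spread could be technical.

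As background, most kinesins walk toward the plus ends of microtubules, which in axons point to the growth cone, and so carry vesicles, mitochondria and cytoskeletal proteins outward. Cytoplasmic dynein-1 walks toward the minus ends and returns endosomes, signalling receptors and aged organelles to the cell body, with dynactin and adaptor proteins that link it to cargo and switch it on. Another set of kinesins builds and separates the mitotic spindle in dividing cells.

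Most of the motor genes were expressed, over a wide range of levels. Values are FPKM as the authors deposited them, a unit defined as fragments divided by transcript length and by the mapped fragments of the library. How they were computed is not known here, so comparisons of levels between genes rest on that definition. A one-sided limma test put 50 of the 61 entries (82.0%) above 1 FPKM, with Benjamini-Hochberg adjustment over all 17611 entries above 0 in at least 1 library, of which 63.7% passed. Among the tested entries with a gene symbol 68.3% passed. The median of the 60 members tested was 12.1 FPKM, against 4.81 over all entries tested and 6.01 over those with a gene symbol. The count rests on the scale: entries above 10000 FPKM, none of them a member, hold most of the summed FPKM, so that 1 FPKM is 0.0381 to 0.0503 once each library is rescaled to a sum of 1000000. On that scale 25 of the 61 passed, against 13.4% of all entries tested. The lowest member above the level was Kif20b at 1.57 ± 0.153 FPKM (SD, n = 3), and the highest below it was Klc3 at 0.893 ± 0.108 (limma, Benjamini-Hochberg adjusted p = 0.00108 and 1).

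Neuronal and commissural markers were present, as the label calls for, and so were markers of progenitors and dividing cells. All 9 pan-neuronal markers lay above 1 FPKM by the same test, the highest being Tubb3 (960 FPKM), Stmn2 (435), Dcx (423) and Map2 (193) and the lowest Syt1 (30.1) and Rbfox3 (24.4 to 28.3). So did the commissural axon markers Robo3 (104), Dcc (62.6), Cntn2 (41.4) and Boc (15.3), and the 6 neural progenitor markers Fabp7 (564), Vim (398), Sox2 (39.3), Hes5 (16.1), Nes (3.15) and Pax6 (2.86). Proliferation markers passed in 10 of 10, from Cdk1 (16.6), Ccnb1 (15.2), Top2a (13.0) and Ccna2 (12.8) down to Mki67 (4.46) and Bub1 (4.14). Of 4 macrophage markers Aif1 (6.76) and Csf1r (1.82) passed, and Ptprc (0.730) and Cx3cr1 (0.240) did not. Of 5 markers of other cell types Col3a1 (2.27) passed, and Mbp (0.743), Pecam1 (0.253), Aqp4 (0.04 to 0.06) and the floor plate marker Foxa2, listed at 0, did not. These are whole cultures, so fewer cells of a type and less RNA per cell cannot be told apart, and the cell source of a motor gene is not known.

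Kinesin-1, the main motor for fast outward transport, was led by its neuronal heavy chain Kif5c. Kif5c (ENSRNOG00000004680) had 165, 165 and 163 FPKM in libraries 1, 2 and 3. Kif5a, the other heavy chain enriched in neurons, had 66.9, 64.7 and 74.4 FPKM, and Kif5b, the form found in most tissues, had 33.9, 36.1 and 34.5. The ranges of the 3 genes did not overlap, and their order was the same in each library. Kif5c exceeded Kif5a by 2.39-fold (95% interval 2.07 to 2.77 by limma on the ratio within each library, Benjamini-Hochberg adjusted p = 9.84e-05 over all 1770 pairs of members), and Kif5a exceeded Kif5b by 1.97-fold (1.68 to 2.30, adjusted p = 0.000321). Fold differences are on the log2(FPKM + 0.1) scale, which understates those of low genes. Kif5c made up 61.4 ± 1.18% of the summed FPKM of the 3 heavy chain genes, Kif5a 25.6 ± 1.52% and Kif5b 13.0 ± 0.516%. Differences between members are the rule in this test, with 1673 of the 1770 pairs (94.5%) past the threshold, so the sizes and intervals matter more than the calls. Of 26 pairs of related genes listed for comparison, 24 had both genes among the members and 22 of these passed.

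The kinesin light chains bind the cargo of kinesin-1, and Klc1 had the highest level of the kinesin entries measured here. Klc1 (ENSRNOG00000011572) had 233.3, 250.9 and 230.6 FPKM in libraries 1, 2 and 3. Klc2 had 44.7, 49.5 and 47.5 FPKM, Klc4 16.6, 18.7 and 16.9, and Klc3 0.97, 0.77 and 0.94. No library of one light chain overlapped the range of another. Klc1 exceeded Klc2 by 5.04-fold (4.45 to 5.70, adjusted p = 6.76e-06 by limma with Benjamini-Hochberg), and Klc2 exceeded Klc4 by 2.71-fold (2.40 to 3.06, adjusted p = 3.28e-05). Klc1 made up 78.4 ± 0.507% of the light chain sum, and Klc3 0.296 ± 0.0477%. The summed heavy chains amounted to 0.899, 0.830 and 0.920 times the summed light chains.

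The kinesin-2 genes among the members form a motor of 2 unlike heavy chains, Kif3a with Kif3b or Kif3c. This motor carries vesicles in axons and, in the form with Kif3b, serves cilia. Kif3c, the partner enriched in neurons, had 54.0, 58.5 and 52.9 FPKM in libraries 1, 2 and 3. Kif3a had 48.0, 51.7 and 49.8 FPKM, and Kif3b 17.1, 18.9 and 17.2. Kif3c and Kif3a did not differ past the threshold (ratio 1.11, 95% interval 0.978 to 1.25; limma, Benjamini-Hochberg adjusted p = 0.0887), although Kif3c was the higher in 3 of 3 libraries. Kif3c exceeded Kif3b by 3.10-fold (2.76 to 3.49, adjusted p = 1.88e-05). The partners Kif3b and Kif3c together had 1.46 ± 0.0482 times the level of Kif3a. Kifap3, the gene of the subunit that joins the heavy chains to cargo and no member by the rule, had 47.4 ± 2.88 FPKM.

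In the kinesin-3 family, which moves synaptic vesicle precursors, dense core vesicles and endosomes, most of the summed level was that of Kif1a. Kif1a (ENSRNOG00000023993), the fast motor for vesicle precursors, had 109, 86.9 and 109 FPKM in libraries 1, 2 and 3. Kif13a, a motor of endosomes, had 7.59 ± 0.131 FPKM, the vesicle motor Kif1c 6.77 ± 0.110, Kif13b, which binds discs-large proteins, 2.00 ± 0.191 and the endosomal Kif16b 1.84 ± 0.0987. All 5 lay above 1 FPKM and 3 of 5 above 5 FPKM, levels that 63.7% and 46.5% of all entries tested passed (limma, Benjamini-Hochberg adjustment). Kif1a exceeded Kif1c by 14.7-fold (12.4 to 17.5, adjusted p = 4.23e-06) and made up 84.7 ± 1.52% of the sum of the 5 genes. Kif1b was not matched by symbol and was not analysed here, so this share is not one of the whole family. Kif21b and Kif21a, kinesin-4 motors of neurons that also slow microtubule growth, had 62.4 ± 7.46 and 26.3 ± 2.70 FPKM, a difference of 2.37-fold (2.10 to 2.66, adjusted p = 4.98e-05). Library 2 was the lowest of the 3 for Kif1a, Kif21b (65.5, 53.9 and 67.8 FPKM) and Kif21a (27.4, 23.2 and 28.3 FPKM).

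**Figure D1:**
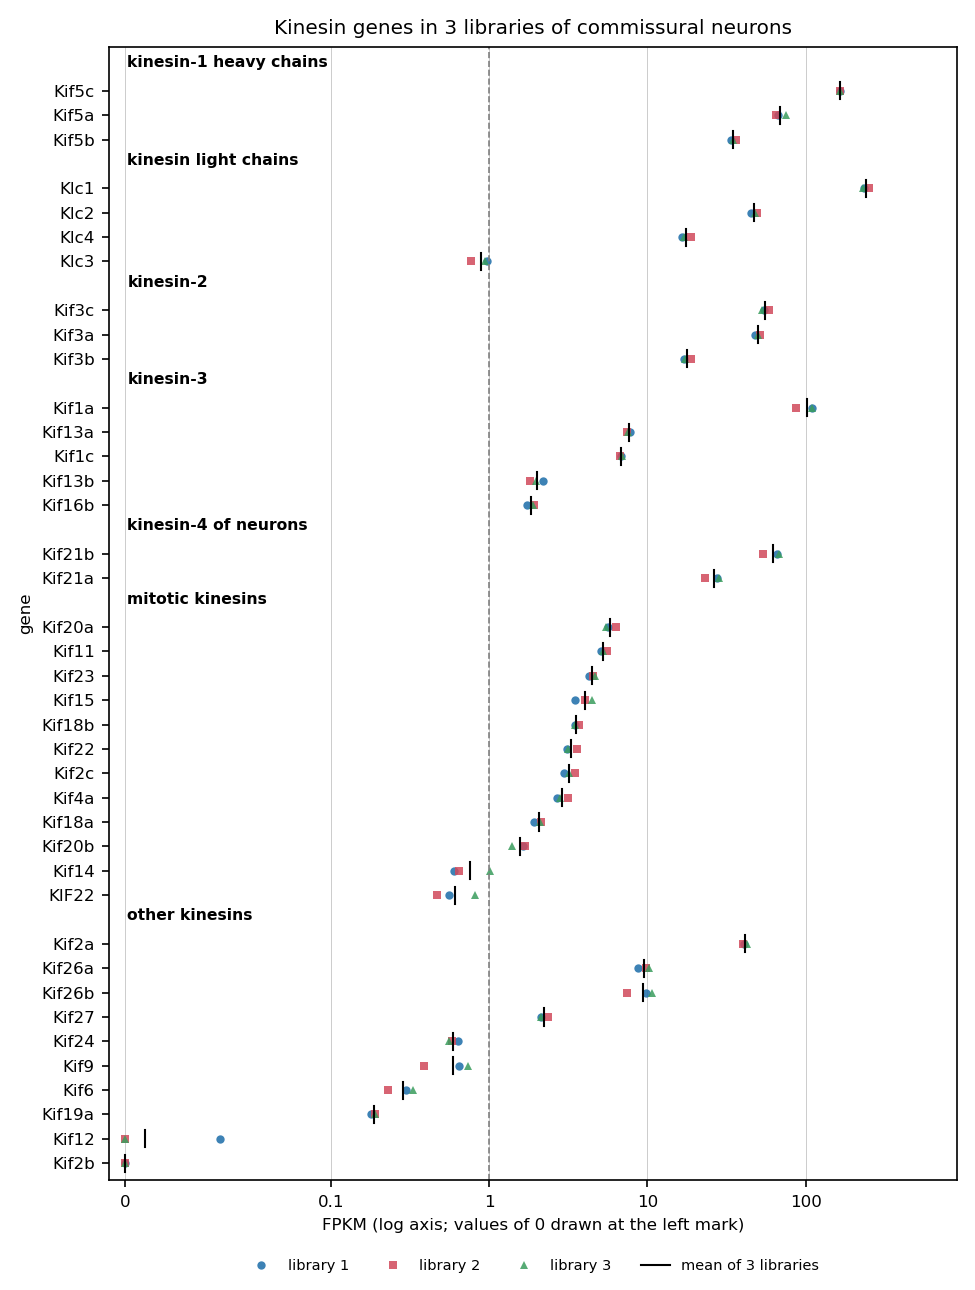
FPKM of the 35 kinesin heavy chain entries and 4 light chain genes in libraries 1, 2 and 3 (points) with their mean (bar), on a log axis and grouped by family; the dashed line marks 1 FPKM. Klc1 and Kif5c lie farthest to the right, the mitotic kinesins span 0.613 to 5.83 FPKM by mean, and Kif2b is at 0.

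The mitotic kinesins were present at low levels. Of their 12 entries 10 passed 1 FPKM by the same limma test, and 1 passed 5 FPKM, against 63.7% and 46.5% of all entries tested. Kif20a, which acts in cytokinesis, had 5.67, 6.31 and 5.50 FPKM in libraries 1, 2 and 3. Kif11, the motor that pushes spindle poles apart, had 5.08, 5.51 and 5.21, and Kif23, the centralspindlin motor, 4.25, 4.52 and 4.68. No member of the mitotic list had a mean above that of Kif20a. Kif15, another spindle motor, had 3.49, 4.05 and 4.47 FPKM, and Kif18b, which shortens astral microtubules, 3.56 ± 0.0987. Another 5 entries lay between these and the call: the chromokinesins Kif22 (3.29) and Kif4a (2.88), the microtubule depolymerase Kif2c (3.22), Kif18a (2.06), which aligns chromosomes, and Kif20b, which acts in cytokinesis. At the low end, Kif14, another cytokinesis motor, had 0.753 ± 0.224 FPKM and did not pass. Kif22 had a further entry under the symbol KIF22 (ENSRNOG00000047950), at 0.613 ± 0.176 FPKM, and whether reads were split between the 2 entries is not known.

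The median of the 13 transport kinesin heavy chains (kinesin-1, kinesin-2, kinesin-3 and Kif21) was 11.1, 10.2 and 10.8 times that of the mitotic kinesins in libraries 1, 2 and 3. The mitotic kinesins summed to 35.5, 39.2 and 37.8 FPKM and the 10 proliferation markers to 92.0, 106 and 101. Both sums were lowest in library 1 and highest in library 2, as was the sum of all members (2937, 3213 and 2964 FPKM). Library 2 was above both others in 62.1% of all entries with a mean of at least 1 FPKM, so this order is not particular to these lists. The mitotic sum was 0.386, 0.369 and 0.373 times that of the proliferation markers, and none of the 10 proliferation markers was listed at 0. The part of dividing cells in these values was not tested. Kifc1 (6.10 ± 0.499 FPKM), a minus-end motor of the spindle, and Cenpe (1.82 ± 0.0700), the kinetochore kinesin, fall outside the naming rule. Kifc1 lay above the highest mean of the mitotic list and Cenpe within its range.

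Genes of the late cell cycle are known to share a promoter element, TTTGAA (the core of the cell cycle genes homology region, CHR), often beside CCAAT boxes, and these letters were looked for in RefSeq promoter windows of 300 bases (250 before and 50 after the annotated start, build GRCr8, which is not the build of the FPKM values). Windows were matched by symbol for 48 of the 60 genes. On either strand, TTTGAA stood in 5 of 10 mitotic kinesin genes, in 0 of 10 transport kinesin heavy chains and in 18.3% of all 33469 windows. CCAAT stood in 6 of 10 mitotic kinesins, 2 of 10 transport kinesins and 37.5% of all windows. Over the 48 member genes together the shares were 16.7% for TTTGAA and 43.8% for CCAAT, near the shares of all windows. The motifs share no letters where they are shown. Both motifs were in the windows of the mitotic kinesins Kif4a, Kif20b, Kif22 and Kif23 and of Kif26b, which is not in the mitotic list. That is 10.4% of the 48 member genes, against 7.41% of all windows. In Kif26b TTTGAA begins 9 bases before the start and CCAAT 73 bases before it. Outside the mitotic list TTTGAA stood in 3 of 38 member genes, Kif26b, Dctn1 and Nde1. This search was chosen after the levels were seen, no test was made, and a match describes letters, not a site in use.

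The 4 mitotic kinesin promoters with both motifs are printed from 200 bases before the annotated start to 20 bases from it, in the direction of the gene, with TTTGAA and CCAAT (or their reverse complements) in capitals. They are followed by those of Kif5c and Kif1a, the highest kinesin heavy chains, which hold neither motif. The positions are chrX:69761683-69761902 (plus strand) for Kif4a, chr1:241840816-241841035 (plus) for Kif20b, chr1:191080859-191081078 (minus) for Kif22, chr8:71320565-71320784 (minus) for Kif23, chr3:54441107-54441326 (plus) for Kif5c and chr9:101094758-101094977 (minus) for Kif1a.
Kif4a: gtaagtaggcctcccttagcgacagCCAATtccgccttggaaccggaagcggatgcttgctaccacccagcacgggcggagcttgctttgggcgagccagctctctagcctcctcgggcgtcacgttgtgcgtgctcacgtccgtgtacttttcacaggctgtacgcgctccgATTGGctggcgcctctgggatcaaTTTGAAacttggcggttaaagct
Kif20b: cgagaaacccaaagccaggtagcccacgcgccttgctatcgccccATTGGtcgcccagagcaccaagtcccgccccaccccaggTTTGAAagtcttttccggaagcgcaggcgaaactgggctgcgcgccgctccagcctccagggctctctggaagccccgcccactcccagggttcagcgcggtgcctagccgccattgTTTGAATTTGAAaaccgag
Kif22: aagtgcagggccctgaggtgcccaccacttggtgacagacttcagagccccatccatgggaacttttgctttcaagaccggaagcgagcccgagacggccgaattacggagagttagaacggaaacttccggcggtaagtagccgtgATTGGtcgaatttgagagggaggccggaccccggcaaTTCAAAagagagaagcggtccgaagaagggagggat
Kif23: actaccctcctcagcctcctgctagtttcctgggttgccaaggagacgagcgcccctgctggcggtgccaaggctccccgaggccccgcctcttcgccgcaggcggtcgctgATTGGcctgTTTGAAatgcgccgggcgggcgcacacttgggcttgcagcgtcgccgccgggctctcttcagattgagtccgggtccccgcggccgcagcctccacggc
Kif5c: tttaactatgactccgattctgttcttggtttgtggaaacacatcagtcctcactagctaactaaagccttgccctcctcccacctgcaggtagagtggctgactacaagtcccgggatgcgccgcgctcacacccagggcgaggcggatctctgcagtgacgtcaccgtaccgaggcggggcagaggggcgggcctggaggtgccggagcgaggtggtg
Kif1a: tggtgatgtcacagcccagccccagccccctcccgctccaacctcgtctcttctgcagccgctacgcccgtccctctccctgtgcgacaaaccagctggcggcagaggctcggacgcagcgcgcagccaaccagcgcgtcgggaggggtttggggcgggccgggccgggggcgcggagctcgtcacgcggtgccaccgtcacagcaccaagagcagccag
In Kif4a the element begins 3 bases before the start, with a CCAAT box 27 bases before it; in Kif22 these distances are 16 and 53 bases, and in Kif23 79 and 88 bases. In Kif20b the element begins 116 bases before the start, and again 1 and 7 bases after the first base, beside a CCAAT box 155 bases before it.

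Among the other kinesins, 4 of 10 lay above 1 FPKM, against 63.7% of all entries tested. Kif2a, a microtubule depolymerase that limits the growth of axon branches, had 40.85, 40.02 and 42.20 FPKM, within the range of the transport motors. Its relative Kif2c was 12.4-fold lower (95% interval 10.7 to 14.5, limma, Benjamini-Hochberg adjusted p = 3.65e-06). Kif26a (9.55 ± 0.756 FPKM) and Kif26b (9.32 ± 1.71), which are thought to have no motor activity, did not differ past the threshold (ratio 1.03, 0.799 to 1.34, adjusted p = 0.740), and Kif26a was the higher in 1 of 3 libraries. Kif27, a relative of Kif7, had 2.21 ± 0.139 FPKM. Kif24 had 0.593 ± 0.0416, Kif9 0.593 ± 0.182, Kif6 0.287 ± 0.0513 and Kif19a 0.187 ± 0.00577, genes known mainly from cilia. Kif12 was listed at 0.02, 0 and 0 FPKM and Kif2b at 0 in each library. Kif17, listed with kinesin-2 but found under another symbol and so no member by the rule, had 0.21, 0.20 and 0.17 FPKM. Kif17 is not part of the kinesin-2 or transport kinesin values above.

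Of the chains that form the core of dynein-1, every gene but one was abundant. The heavy chain gene Dync1h1 (ENSRNOG00000006178), which encodes the motor itself, had 78.2, 33.9 and 71.1 FPKM in libraries 1, 2 and 3, with library 2 far below the others. The intermediate chains hold dynactin: Dync1i2 (ENSRNOG00000009781), the form of most tissues, had 111, 133 and 108 FPKM, whereas Dync1i1 (ENSRNOG00000009700), known as the form enriched in neurons, had 0.77, 0.89 and 0.85 FPKM. Dync1i1 did not pass 1 FPKM (limma, Benjamini-Hochberg adjusted p = 1), and Dync1i2 exceeded it by 125-fold (107 to 145, adjusted p = 1.28e-06) and made up 99.3 ± 0.0613% of their sum. The light intermediate chains, which bind the activating adaptors, were closer together. Dync1li1 had 67.6, 76.3 and 66.7 FPKM and Dync1li2 52.2, 52.0 and 50.3. Dync1li1 exceeded Dync1li2 by 1.36-fold (1.18 to 1.56, adjusted p = 0.00378), but did not pass a test for more than 1.5-fold.

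The dynein light chains held 4 of the 5 highest levels among the members, although their proteins also work outside dynein. Dynll1, known as a hub that pairs many proteins besides dynein, had 339, 439 and 360 FPKM in libraries 1, 2 and 3. Dynlrb1 had 289, 359 and 297 FPKM, Dynlt1 228, 279 and 230, and Dynll2 202, 228 and 193. All 4 were highest in library 2, as were 62.1% of all entries with a mean of at least 1 FPKM. Dynll1 exceeded Dynll2 by 1.82-fold (1.58 to 2.09, adjusted p = 0.000343, limma with Benjamini-Hochberg). The paralogs Dynlt3 (5.05, 4.78 and 4.32 FPKM) and Dynlrb2 (0.48, 0.15 and 0.81 FPKM) were far lower, and Dynlrb2 did not pass 1 FPKM. Dynlt1 exceeded Dynlt3 by 50.9-fold (42.2 to 61.3, adjusted p = 2.03e-06). Of the related genes found under other symbols, Dynlt2b, a light chain of the ciliary dynein-2, had 19.5 ± 0.704 FPKM, Dynlt4 was listed at 0.17, 0 and 0.26, Dynlt5 at 0.06, 0 and 0, and Dynlt2 at 0 throughout.

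All 6 dynactin genes lay above 1 FPKM, against 63.7% of all entries tested. Their means ran from 39.2 to 116 FPKM, where those of the 5 larger dynein-1 chains ran from 0.837 to 117. Dctn2 (dynamitin, which joins the shoulder of the complex) had 111, 126 and 112 FPKM. Dctn1 (p150Glued, which binds microtubules and the dynein intermediate chain) had 94.3, 90.6 and 96.8 FPKM. Dctn3, another shoulder subunit, had 64.7 ± 7.03 FPKM, and the pointed end subunits Dctn6, Dctn4 and Dctn5 had 49.5 ± 5.07, 45.1 ± 2.52 and 39.2 ± 2.07. The 6 genes of the dynactin filament and its caps, listed for comparison, also all passed, with Capzb at 128 ± 12.6, Actr1a at 126 ± 13.2, Actr10 at 96.2 ± 12.1, Capza2 at 82.1 ± 8.14, Capza1 at 51.4 ± 4.41 and Actr1b at 33.0 ± 2.38 FPKM.

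The 5 regulators of dynein all passed as well, against 63.7% of all entries tested. Pafah1b1 (Lis1, which helps dynein to take up its active form) had 119, 118 and 114 FPKM, below Kif5c, its neighbour in the order of levels (1.40-fold, 1.24 to 1.58, limma, Benjamini-Hochberg adjusted p = 0.00156). From Dync1i2, the neighbour on the other side, it did not differ past the threshold (ratio 1.00, 0.851 to 1.19, adjusted p = 0.942). Ndel1, which binds Lis1 and dynein, had 24.9, 29.2 and 23.6 FPKM, and its paralog Nde1, known from dividing progenitors, 5.69, 7.71 and 6.14. Ndel1 exceeded Nde1 by 3.95-fold (3.41 to 4.56, adjusted p = 1.97e-05). The adaptors Bicd2 and Bicd1, which link dynein to vesicles and nuclei, had 14.7 ± 0.176 and 6.95 ± 0.944 FPKM, a difference of 2.11-fold (1.74 to 2.56, adjusted p = 0.000491). Of 10 other matched adaptors that activate dynein, 7 lay above 1 FPKM, near the 63.7% of all entries. They were led by Numa1 (41.5 ± 5.03), Bicdl1 (9.72 ± 0.643), Hook3 (8.69 ± 1.21) and Hook1 (6.93 ± 0.227). Rilp had 0.133 ± 0.0351 and Bicdl2 was listed at 0.

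**Figure D2:**
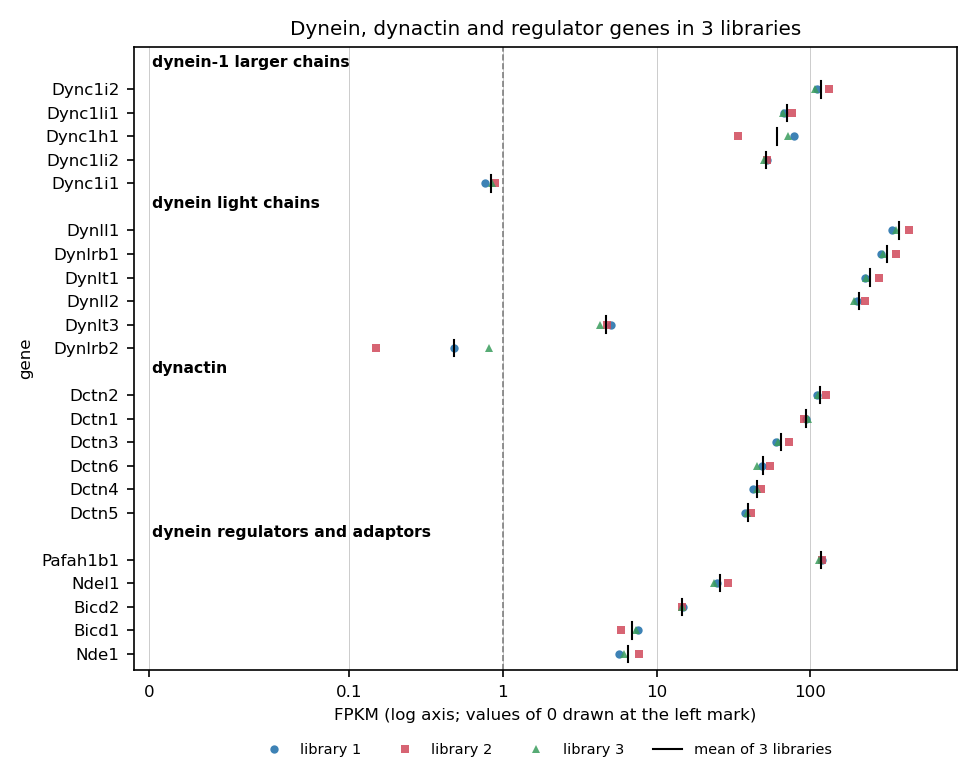
FPKM of the 22 dynein-1, dynactin and regulator genes in libraries 1, 2 and 3 (points) with their mean (bar), on a log axis; the dashed line marks 1 FPKM. The 4 high light chains lie farthest right, Dync1i1 and Dynlrb2 lie left of the line, and Dync1h1 is low in library 2.

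Cargo adaptors of kinesin were expressed throughout. All 18 listed genes passed 1 FPKM, against the 63.7% of all entries given above, with a median of 28.5 FPKM. The highest were Fez1 (191 ± 27.7 FPKM), which activates kinesin-1, Clstn1 (136 ± 4.87), a vesicle protein bound by light chains, Arl8a (124 ± 11.2), a lysosomal GTPase, and Kidins220 (106 ± 5.72), a partner of neurotrophin receptors. The lowest were Htt (8.37 ± 1.90) and Sybu (7.04 ± 0.159). Of the remaining kinesin genes listed, Kifc2 had 10.9, 7.46 and 12.2 FPKM and Kifc3 had 6.73, 7.36 and 6.91.

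**Figure D3:**
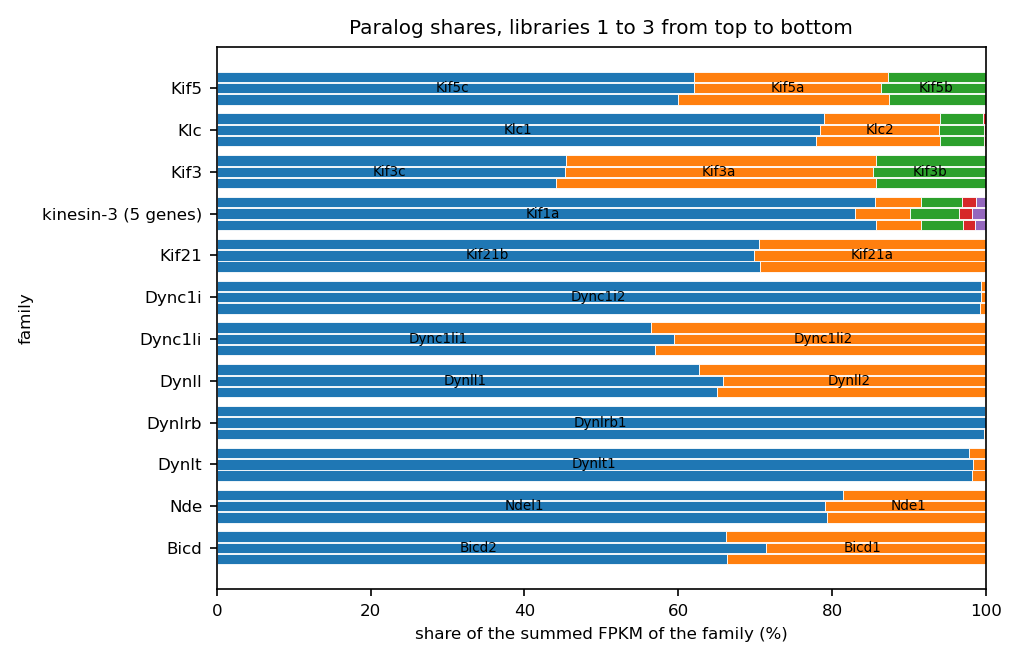
Share of each gene in the summed FPKM of its family, in percent, with 3 bars per family for libraries 1, 2 and 3 from top to bottom. Kif5c, Klc1, Kif1a and Dync1i2 take 61.4%, 78.4%, 84.7% and 99.3% of their sums on average, and the shares move little between libraries.

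Across the 60 entries above 0, libraries 1 and 2 had a Pearson's r of log2 levels of 0.995, libraries 1 and 3 of 0.998, and libraries 2 and 3 of 0.993. These are values across genes of shared libraries and say nothing of replication. Among the 50 members with a mean of at least 1 FPKM, the coefficient of variation over libraries had a median of 7.35%, from 0.527% for Kif5c to 38.9% for Dync1h1. In the order of means, 44 of 59 neighbouring pairs did not differ past the threshold and 15 did, so exact ranks carry little. From Dctn1 at 93.9 FPKM the next lower level, Dync1li1 at 70.2, did differ (1.34-fold, 1.13 to 1.58, adjusted p = 0.00875 in limma). From Dync1li1 down to Kif5b at 34.8 FPKM no neighbour in the order did.

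Dync1h1 differed more between libraries than any other member at 1 FPKM or more. Library 2 was below both others in 12 of the 50 members, near the 21.5% found over all 11662 entries with a mean of at least 1 FPKM, and above both in 30, near the 62.1% of all entries. Against the mean of libraries 1 and 3, and with the median of all entries set to 0, the log2 deviation of library 2 was -1.26 for Dync1h1, -0.59 for Kif26b, -0.48 for Bicd1, -0.46 for Kif1a and -0.44 for Kif21b. At the other end it was 0.25 for Nde1, 0.20 for Dynll1, and 0.16 for Dynlrb1, Dynlt1 and Dync1i2. Of all entries, 0.772% deviated lower than Dync1h1. Of 10 genes known for very long transcripts, a list added after these values were seen, 10 were lower in library 2. Their median deviation was -1.04, with a range from -1.42 to -0.46. An earlier report of these data had described library 2 as low in long transcripts, so this count was foreseen and is no independent support. Transcript lengths were not measured here. The highest by mean were Huwe1 (39.9 FPKM), Ank2 (27.4), Macf1 (25.1) and Herc1 (18.1). Of the lowest of that list, Syne1 (2.75) was among the 10 and Ahnak (0.14 to 0.32) lay below 1 FPKM and was not counted. Library 2 was also the lowest for 3 of 4 commissural axon markers (Robo3 had 118, 74.5 and 119 FPKM) and 1 of 9 pan-neuronal markers. It was the highest for 6 of 6 progenitor, 7 of 10 proliferation and 6 of 9 pan-neuronal markers, against 62.1% of all entries. The median deviation, on the scale above, was -0.62 for commissural, 0.08 for progenitor, 0.01 for proliferation and -0.02 for pan-neuronal markers. By kind of motor gene library 2 was the lowest for 4 of 5 kinesin-3 and 2 of 2 Kif21 genes. Within kinesin-3 the deviation was -0.46 for Kif1a and -0.31 for Kif13b. It was smaller for Kif1c (-0.17), Kif13a (-0.16) and Kif16b (-0.05), which was highest in library 2. Library 2 was the highest for 4 of 5 dynein light chains and 5 of 6 dynactin genes. For the mitotic kinesins library 2 was the highest in 8 of 10 and the lowest in 0 of 10. The part of transcript length or of the mix of cells in these values was not tested.

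The balance of the dynein genes therefore depended on this library. The summed intermediate chains were 1.43, 3.96 and 1.53 times Dync1h1 in libraries 1, 2 and 3, with a mean of 2.30 ± 1.43 and of 1.48 without library 2. For the light intermediate chains these ratios were 1.53, 3.79 and 1.65. Without library 2, Dync1h1 had a mean of 74.6 FPKM in place of 61.1 and ranked 12 in place of 16 among the members, and it then exceeded Kif3c by 1.39-fold (1.22 to 1.59, adjusted p = 0.00310 in limma), Dync1li2 by 1.45-fold and Dctn3 by 1.23-fold. It was then below Dctn1 (0.781 times its level, adjusted p = 0.0123 in limma). None of these 4 pairs differed past the threshold over all 3 libraries. Pairs with Kif21b, Kif5a and Dync1li1 did not differ past it without library 2 either (adjusted p = 0.112, 0.475 and 0.0957 in limma). Dync1h1 was lowest in library 2, so its rise without that library follows from leaving it out, and the calls are no separate support. Dync1h1 remained below Dync1i2 with and without library 2 (0.491 and 0.682 times its level, adjusted p = 0.0436 and 0.00191). Dctn1 was 1.21, 2.67 and 1.36 times Dync1h1, with a mean of 1.75 ± 0.805 and of 1.28 without library 2. In a ratio without Dync1h1, the Dynll pair summed to 4.86, 4.98 and 5.08 times the intermediate chains. After each library was rescaled to a sum of 1000000, the median deviation of library 2 over all entries moved from 0.13 to 0.39. The 0.1 added before taking logs was kept on that scale, where it weighs more, so 0.39 understates the shift. On that scale 2 of the 50 members (Dync1h1 and Kif26b) were below both other libraries, near the 3.86% of all entries. Another 47 were above both, against 91.5%. With a common upper quartile 18 were below both, against 32.7% of all entries, and 21 above both, against 46.5%.

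**Figure D4:**
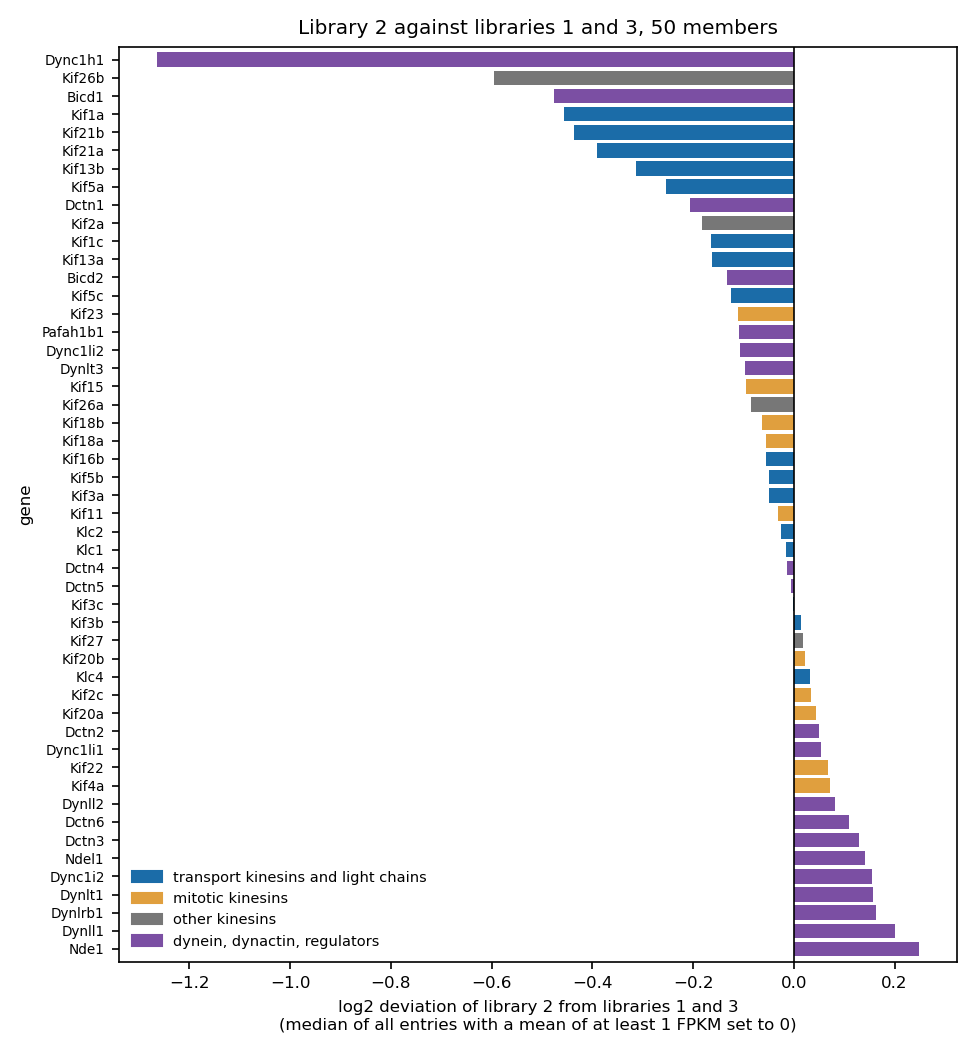
Log2 deviation of library 2 from the mean of libraries 1 and 3 for the 50 members with a mean of at least 1 FPKM, after the median of all such entries was set to 0; colours mark the kinds of motor gene. Dync1h1 stands apart at -1.26, and the mitotic kinesins lie between -0.11 and 0.07.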

How the data were processed

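RNA of 3 libraries in 1 group was measured with paired reads of 50 bases from stranded libraries, per the labels' protocols. FastQC, Trimmomatic 0.22, STAR and build rn6 come from the submitters' processing notes. How FPKM was computed, with which annotation, and how strand and reads with several matches were treated is not known here. The authors deposited FPKM per library, rounded to 0.01. What 1 read is worth depends on a gene's length, which the table does not hold, so depth is unknown and no counting interval is given.

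Levels were tested with limma 3.58.1 (R 4.3.3, statmod 1.5.0) as log2(FPKM + 0.1) in the 17611 entries above 0 in at least 1 library, against a level of 1 FPKM (one-sided, robust prior, mean-variance trend). For pairs, two-sided tests were made on log2 ratios taken library by library, with a robust prior from all 1770 pairs of members above 0. Both used Benjamini-Hochberg adjustment and a threshold of 0.05, and were first tested on simulated data. There, 1 of 50 genes at the level itself and 3 of 50 pairs without a difference were called. Of pairs that differed 1.2-fold, 33 of 50 were called. In the level simulation each gene had the median spread of a bin of genes, so outlying spreads such as that of Dync1h1 were not covered. Simulated pairs were drawn from genes with a mean of at least 1 FPKM, so lower members were not covered. The simulated noise was independent between genes, so a shift shared by many genes of 1 library was not covered. An exact sign-flip test on 3 libraries cannot go below p = 0.25. Errors of length or mapping shared by all libraries are not covered, and close paralogs could share reads.

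Members and lists were chosen with earlier results of these data known. Every member is named; of each list for comparison, the 4 highest and 2 lowest genes by mean (all where 6 or fewer). Of 160 list entries, 7 were not matched, among them Kif1b, and 8 were matched by RefSeq synonyms. Alternatives were other pseudocounts, filters, scalings, levels, priors, a fold margin and each library left out; limma on entries with a gene symbol was added later, with the data known. Plots were made with matplotlib 3.10.9.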

Additional observations from a re-analysis of the deposited data

How the results depend on the processing

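Counts of members and of each list above 1 FPKM stayed within 1.5 times under pseudocounts of 0.01 and 1, no filter, entries above 0 in every library, entries with a symbol, a common upper quartile and a plain prior, and without any 1 library, except that macrophage markers fell from 2 to 1 without library 2. The level mattered most. With each library rescaled to a sum of 1000000, 25 members passed, among them 7 of 13 transport kinesin heavy chains, 1 of 5 kinesin-3 genes, 1 of 2 Kif21 genes, 1 of 5 dynein regulators, 1 of 10 other kinesins and 0 of 12 mitotic kinesins. Of the lists for comparison 28 genes passed, among them 8 of 18 cargo adaptors, 1 of 10 dynein adaptors, 1 of 5 other kinesin genes, 3 of 6 progenitor and 0 of 10 proliferation, 0 macrophage and 0 other markers. At 5 FPKM, 3 kinesin-3 genes, 1 mitotic kinesin, 4 dynein adaptors, 1 macrophage and 0 other markers passed, and at 0.5 FPKM 2 other markers did. Fewer genes pass a higher level by construction. The 0.1 added before taking logs was kept after the rescaling, where it weighs more. Negative distances on that scale are therefore smaller in size than those of the levels alone. After the rescaling, the log2 distance from the level turned negative for Bicd1 -1.48, Bicd2 -0.60, Dynlt3 -1.87, Kif11 -1.76, Kif13a -1.38, Kif13b -2.57, Kif15 -2.03, Kif16b -2.62, Kif18a -2.55, Kif18b -2.13, Kif1c -1.50, Kif20a -1.66, Kif20b -2.72, Kif22 -2.19, Kif23 -1.92, Kif26a -1.12, Kif26b -1.16, Kif27 -2.50, Kif2c -2.21, Kif3b -0.37, Kif4a -2.30, Klc4 -0.39, Nde1 -1.55. At 5 FPKM it did for Dynlt3 -0.0853, Kif13b -1.29, Kif15 -0.32, Kif16b -1.39, Kif18a -1.24, Kif18b -0.48, Kif20b -1.61, Kif22 -0.59, Kif23 -0.15, Kif27 -1.14, Kif2c -0.62, Kif4a -0.78. At 0.5 FPKM it turned positive for Dync1i1 0.64, KIF22 0.22, Kif14 0.48, Kif24 0.21, Kif9 0.17, Klc3 0.72. Of the related pairs, the call of Dync1li1 and Dync1li2 was lost at a margin of 1.5-fold, and the log2 ratio of Kif26a to Kif26b ran from -0.121 without library 2 to 0.159 without library 1, with no call in either. Members below both other libraries in library 2 numbered 2 after rescaling to 1000000 and 18 with a common upper quartile, against 12. No paired analysis was possible because the series has 1 group. The depth of the libraries is unknown, which limits what can be said of genes near 0.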
